A study of Mus musculus with 8 samples.

Results

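The WNT4, RSPO1 and beta-catenin signalling genes are a set of 10 genes, Wnt4, Wnt6, Rspo1, Lgr4, Lgr5, Ctnnb1, Axin2, Znrf3, Rnf43 and Fzd1, chosen by name from the table of expressed genes. Of the 10, 9 had a row among the 11783 genes of the table, and Rnf43 had none and was not analysed here. They were measured by RNA-seq in granulosa cells, the somatic cells around the oocyte, isolated from ovaries of C57BL/6 mice. The groups were postnatal day 4 (PND4, 4 libraries) and postnatal day 1 (PND1, 4 libraries), with no transgene or treatment named for either. The values are FPKM, the authors' expression level scaled by transcript length and sequencing depth. This allows only a rough comparison of levels between genes, because the program and annotation behind the values are not named. The comparison asks how these transcripts differ between the ages around the time when the first primordial follicles begin to grow. The labels do not tie libraries to single animals or litters, so p-values measure only the spread between libraries, and this may be technical.

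In canonical WNT signalling a secreted WNT protein binds a Frizzled receptor and an LRP co-receptor at the cell surface. This stops a complex of AXIN, APC, GSK3 and casein kinase from marking beta-catenin for destruction, and beta-catenin then acts in the nucleus with TCF and LEF factors. R-spondins bind LGR receptors together with the ubiquitin ligases ZNRF3 and RNF43, which otherwise remove Frizzled from the membrane. In the mouse fetal gonad RSPO1 and WNT4 direct the somatic cells towards the ovarian fate.

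The promoters of Wnt4 and Rspo1 are shown because these were the members whose libraries did not overlap between the ages, and that of Axin2 because its transcript is a common readout of beta-catenin activity. The sequences are from RefSeq on GRCm38.p6, read 5′ to 3′ on the plus strand, and end at the base before the start of the gene in the GENCODE annotation. Capitals mark the GC box GGGCGG on either strand. The stretches are chr4:137277385-137277488 for Wnt4, chr4:124986180-124986429 for Rspo1 and chr11:108920099-108920348 for Axin2.
Wnt4: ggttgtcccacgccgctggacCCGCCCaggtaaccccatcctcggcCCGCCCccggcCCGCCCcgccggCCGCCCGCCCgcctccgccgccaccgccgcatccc
Rspo1: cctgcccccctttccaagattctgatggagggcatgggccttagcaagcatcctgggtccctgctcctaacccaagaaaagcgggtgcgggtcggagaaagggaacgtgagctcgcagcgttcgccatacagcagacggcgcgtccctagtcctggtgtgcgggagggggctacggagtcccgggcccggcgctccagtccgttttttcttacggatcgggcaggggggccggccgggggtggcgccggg
Axin2: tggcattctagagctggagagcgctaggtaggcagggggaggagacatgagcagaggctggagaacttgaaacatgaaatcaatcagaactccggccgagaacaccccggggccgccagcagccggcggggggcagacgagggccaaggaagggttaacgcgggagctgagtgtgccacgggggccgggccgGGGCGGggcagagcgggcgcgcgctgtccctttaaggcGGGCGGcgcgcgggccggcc

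The stretch of Wnt4 held 5 GC boxes in 104 bases, with 1 pair of them overlapping, that of Axin2 held 2 in 250 bases, and that of Rspo1 held 0 in 250 bases. Windows from 250 bases before to 50 bases after a RefSeq transcript start were found for 7 of the 9 listed members, 8 windows in all because Ctnnb1 has 2. The RefSeq starts of Wnt4 and Ctnnb1 lie downstream of their GENCODE gene starts and that of Fzd1 lies upstream, so these windows are placed differently from the gene positions given below. A GC box lay in 5 of these 8 windows, and in 35.7% of the 32851 windows of all genes. Both Ctnnb1 windows, which overlap each other, were among the 5. The TCF and LEF core words CTTTGAT and CTTTGTT, searched on both strands, lay in 0 of the 8, against 3.73% and 5.85% of all windows. The word TATAAA, also searched on both strands, lay in 2 of the 8, against 13.6% of all windows. The median share of G and C was 72.5% in the 8 windows, against 52.7% in all. Lgr5 and Znrf3 were the listed members without a window.

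The libraries listed between 222 and 1234 genes at exactly 0, with the most at each age in the library numbered 1, and their summed FPKM ran from 443333 to 505035. Read depth is unknown. Of the 10756 genes tested with limma on log2(FPKM + 1), 1 passed Benjamini-Hochberg adjustment (0.0093%), and it is not a WNT pathway gene. Of these genes 635 (5.9%) had an unadjusted p under 0.05, and for 456 (4.24%) the ages did not overlap. The median log2 difference, PND4 minus PND1, of all genes tested was 0.078, with 6486 genes above 0 and 4270 below. The differences below are read against these values.

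The granulosa label was checked against its markers. Foxl2, the transcription factor of ovarian somatic identity, had 26.2, 13.3, 15.3 and 15.4 FPKM in PND4 libraries, against 10.5, 19.3, 15.6 and 18.0 FPKM in PND1 libraries. Of 12 granulosa markers 10 were listed, and Fshr and Hsd17b1, genes of growing follicles, had no row. The 10 summed to between 861 and 1137 FPKM at PND4 and between 863 and 1183 FPKM at PND1. Krt18 and Krt8 supplied most of this sum, with means of 493 and 373 FPKM over the 8 libraries. Kitl came next at 69.6 FPKM. The sum therefore mainly follows these keratins, and its size against other marker sums gives no share of cell types. Markers of the ovarian surface epithelium were also present in every library. The 6 listed of 7 summed to between 184 and 424 FPKM at PND4 and between 96.8 and 340 FPKM at PND1. Krt19, a keratin of that epithelium, had 69.5, 97.3, 198 and 140 FPKM at PND4 and 139, 44.5, 136 and 160 FPKM at PND1, above Foxl2 in every library. This order depended on the markers taken. Kitl, of the granulosa list, had means of 67.7 FPKM at PND4 and 71.5 FPKM at PND1. Upk3b, of the epithelium list, had means of 39.7 and 37.1 FPKM for PND4 and PND1. Oocyte markers (10 of 12 listed) summed to between 16.0 and 195 FPKM at PND4 and between 12.2 and 61.6 FPKM at PND1, with the highest sum in PND4 replicate 3. The largest parts of that sum were Zp3 (61.3 FPKM) and Zp2 (55.8 FPKM). The oocyte markers did not move together. Of 9 tested, 4 had a log2 difference above 0 and 5 below, from 2.32 for Zp3 to -1.77 for Figla, with a median of -0.71. Stroma markers (7 of 7 listed) summed to between 110 and 142 FPKM at PND4 and between 81.3 and 99.1 FPKM at PND1, so the ages did not overlap. All 7 had a log2 difference above 0, from 0.026 for Nr2f2 to 1.27 for Tcf21. Taken singly only 1 of the 7, Dcn, did not overlap between the ages, against 4.24% of all genes tested. Erythroid markers (3 of 5 listed) summed to between 0.268 and 11.4 FPKM at PND4 and between 17.1 and 48.9 FPKM at PND1, again without overlap. Of 5 immune markers 2 were listed, with Ptprc, Adgre1 and Tyrobp absent from the rows, and they summed to between 1.25 and 11.2 FPKM at PND4 and between 4.04 and 8.38 FPKM at PND1. None of the 5 endothelial markers (Pecam1, Cdh5, Kdr, Tek, Emcn) had a row.

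**Figure D1:**
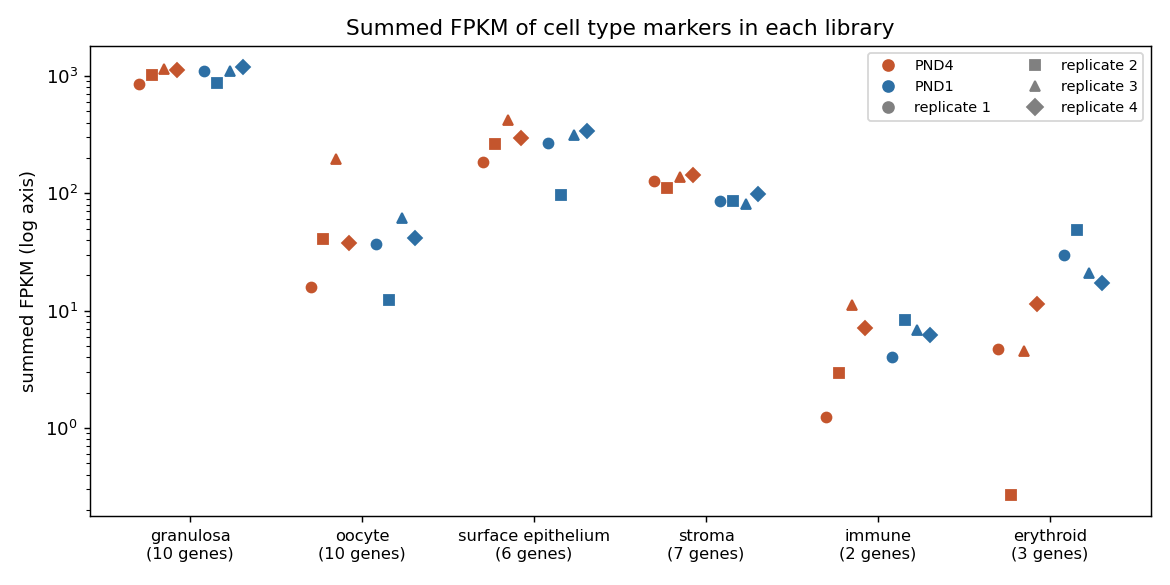
Summed FPKM (log axis) of listed cell type markers in each PND4 and PND1 library, with a symbol per replicate number. Krt18 and Krt8 supplied most of the granulosa sum. Surface epithelium markers were present in all 8 libraries, the oocyte sum was highest in PND4 replicate 3 at 195 FPKM, and the stroma and erythroid sums did not overlap between the ages.

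Of the 9 listed members all 9 passed the filter on low values and 0 passed the adjusted test, with adjusted p-values from 0.743 to 0.973. The log2 difference was above 0 for 3 members and below 0 for 6, with a median of -0.17. Wnt4 and Rspo1 were the 2 members with an unadjusted p under 0.05 and also the 2 whose ages did not overlap. They lay on opposite sides. Wnt4 was lower at PND4 at that level, as were 1.84% of all genes tested, and Rspo1 was higher at PND4, as were 4.06% of all genes tested.

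Wnt4 (ENSMUSG00000036856, chromosome 4 from 137277489 to 137299726 on GRCm38, plus strand) encodes the secreted WNT ligand needed for female gonad development in the mouse. It had 17.9, 15.7, 14.5 and 12.1 FPKM in the 4 PND4 libraries, against 22.8, 23.5, 18.0 and 23.7 FPKM in the 4 PND1 libraries. Every PND4 library lay below every PND1 library, but PND4 replicate 1 and PND1 replicate 3 were nearly equal. The means were 15.1 ± 2.43 FPKM at PND4 and 22.0 ± 2.71 FPKM at PND1 (SD, n = 4 each). Their ratio, PND4 over PND1, was 0.685. The log2 difference was -0.52 with an SE of 0.18 (95% interval -0.92 to -0.13), and it did not pass over all genes (limma, unadjusted p = 0.0143, adjusted p = 0.743). Among all genes tested 1.08% had every PND4 library below every PND1 library. With median-of-ratios or upper-quartile scaling Wnt4 overlapped between the ages, while its log2 difference was -0.60 under both. In the authors' deposited table the fold of Wnt4, coded as PND1 over PND4, was 1.38 (p = 0.0158, q = 0.742). In a bulk library fewer cells of a type cannot be told apart from less RNA per cell, here and for every gene below.

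Rspo1 (ENSMUSG00000028871, chromosome 4 from 124986430 to 125009099, plus strand) encodes the secreted R-spondin that amplifies WNT signalling in the gonad. It had 8.43, 8.17, 13.6 and 7.19 FPKM in PND4 libraries, against 5.28, 5.77, 5.61 and 6.77 FPKM in PND1 libraries. Every PND4 library lay above every PND1 library, and PND4 replicate 3 was the highest of all. The means were 9.35 ± 2.89 FPKM at PND4 and 5.86 ± 0.643 FPKM at PND1 (SD, n = 4 each), a ratio of PND4 over PND1 of 1.596. The log2 difference was 0.56 with an SE of 0.25 (95% interval 0.0067 to 1.12), which did not pass over all genes (limma, unadjusted p = 0.0477, adjusted p = 0.805). Among all genes tested 3.16% had every PND4 library above every PND1 library. Without PND4 replicate 3, which also had the highest oocyte and surface epithelium sums, the difference was 0.38 (unadjusted p = 0.162 in limma). The part of these markers in the Rspo1 values was not tested. The authors' deposited table gives Rspo1 a fold of 0.695, coded as PND1 over PND4 (p = 0.0562, q = 0.742).

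The ratio of Rspo1 to Wnt4 within a library was 0.470, 0.520, 0.937 and 0.595 in PND4 libraries, against 0.232, 0.246, 0.312 and 0.285 in PND1 libraries. The ratio was formed after both genes' values were seen. Because Wnt4 lay wholly below and Rspo1 wholly above at PND4, the ratios of the ages could not overlap, so they are given as a description of size with no test.

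**Figure D2:**
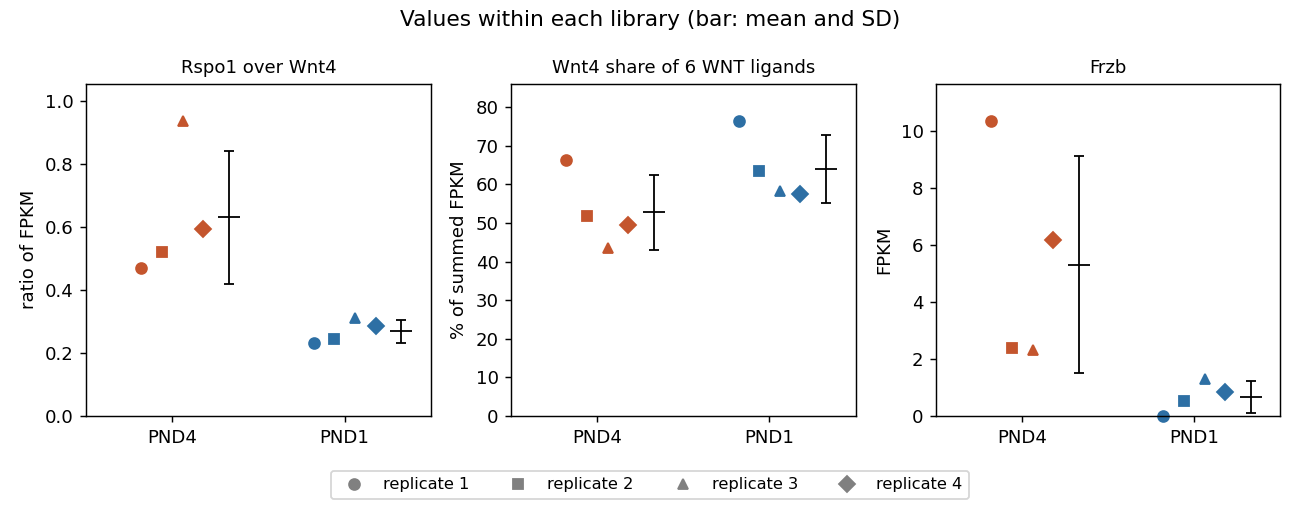
Ratio of Rspo1 to Wnt4 FPKM (left), share of Wnt4 in the summed FPKM of 6 WNT ligands (middle) and FPKM of the WNT inhibitor gene Frzb (right) in each PND4 and PND1 library, with the mean and SD as bars. The ratio was at least 0.470 at PND4 and at most 0.312 at PND1, the shares overlapped, and Frzb was at least 2.33 FPKM at PND4 and at most 1.30 FPKM at PND1.

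Among WNT ligands, 6 of 19 had a row, and Wnt4 had the highest level of the 6 in every library. It made up 66.3%, 51.8%, 43.6% and 49.5% of their summed FPKM in PND4 libraries, against 76.6%, 63.4%, 58.2% and 57.6% in PND1 libraries, so the ages overlapped. Wnt2b stood at 4.47 ± 3.67 FPKM at PND4 and 3.26 ± 1.6 FPKM at PND1. Wnt5a, a ligand best known for signalling without beta-catenin, stood at 4.09 ± 1.12 FPKM at PND4 and 3.08 ± 0.894 FPKM at PND1. Of the 6 ligands 3 had a log2 difference above 0 and 3 below, with a median of -0.024.

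Wnt6 (ENSMUSG00000033227, chromosome 1 from 74771892 to 74785322, plus strand), a second canonical ligand, was close to the low end of the table. It had 2.54, 0.343, 0.979 and 0.913 FPKM in PND4 libraries. In PND1 libraries it was listed at 0 in replicate 1 and had 2.86, 1.43 and 1.82 FPKM in the others. The ages overlapped over their whole range, with a log2 difference of -0.14 (95% interval -1.31 to 1.03, limma adjusted p = 0.973). Wls, which carries WNT proteins to the cell surface, was far more abundant than any ligand, at 56.2 ± 16.3 FPKM at PND4 and 69.6 ± 19.9 FPKM at PND1 (SD, n = 4 each).

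Lgr4 and Lgr5 encode the receptors of R-spondins. Lgr4 (ENSMUSG00000050199, chromosome 2 from 109917647 to 110014257, plus strand) had 7.53, 7.27, 14.3 and 13.4 FPKM in PND4 libraries, against 10.002, 15.4, 15.0 and 11.8 FPKM in PND1 libraries. PND4 replicates 1 and 2 lay below all other libraries, and replicates 3 and 4 lay within the PND1 range. Its log2 difference was -0.31 (95% interval -0.90 to 0.28, limma adjusted p = 0.855).

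Lgr5 (ENSMUSG00000020140, chromosome 10 from 115450311 to 115587780, minus strand), which also marks the ovarian surface epithelium, had 0.894, 0.778, 2.40 and 0.720 FPKM in PND4 libraries. It had 1.17, 1.14, 4.26 and 3.91 FPKM in PND1 libraries. PND1 fell into a low pair (replicates 1 and 2) and a high pair (replicates 3 and 4), and PND4 replicate 3 lay between the pairs. Lgr5 had a log2 difference of -0.65 (95% interval -1.68 to 0.38, limma unadjusted p = 0.191, adjusted p = 0.835). Without PND4 replicate 3 the difference was -0.88 (limma unadjusted p = 0.109). That was the only PND4 library above the lowest PND1 library. Leaving it out therefore had to remove the overlap of the ages, which is no result of its own. Lgr4 exceeded Lgr5 in every library. Rspo2, Rspo3, Rspo4 and Lgr6, the other genes of these families, had no row.

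Fzd1 (ENSMUSG00000044674, chromosome 5 from 4753839 to 4758035, minus strand) encodes a Frizzled receptor. It had 16.2, 12.1, 20.5 and 23.3 FPKM in PND4 libraries, against 13.8, 36.5, 23.0 and 21.1 FPKM in PND1 libraries. The groups overlapped, and PND1 replicate 2 was the highest library. Fzd1 had a log2 difference of -0.33 (95% interval -0.96 to 0.30, limma adjusted p = 0.855), and without PND1 replicate 2 it was -0.10. Fzd2 was as abundant as Fzd1, at 18.0 ± 4.54 FPKM at PND4 and 18.3 ± 3.26 FPKM at PND1. Of the 16 genes in the receptor list 11 had a row and 10 were tested, with 5 differences above 0, 5 below and a median of 0.054. The most abundant were Ryk, a WNT-binding receptor of the tyrosine kinase family, at 59.6 ± 9.32 FPKM at PND4 and 54.3 ± 11.4 FPKM at PND1, and Ptk7, a co-receptor of planar polarity, at 29.1 ± 4.395 and 26.8 ± 4.75 FPKM for PND4 and PND1.

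Znrf3 (ENSMUSG00000041961, chromosome 11 from 5276324 to 5444847, minus strand) encodes the ligase that clears Frizzled from the membrane until an R-spondin binds it. It had 2.04, 2.82, 3.71 and 0.992 FPKM in PND4 libraries, against 2.89, 1.99, 2.27 and 3.59 FPKM in PND1 libraries. The PND1 libraries lay within the range of the PND4 libraries, and the log2 difference was -0.17 (95% interval -1.01 to 0.67, limma adjusted p = 0.947).

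Ctnnb1 (ENSMUSG00000006932, chromosome 9 from 120929216 to 120960507, plus strand) encodes beta-catenin, which acts both in the nucleus and at cadherin junctions. It had 112, 104, 109 and 51.1 FPKM in PND4 libraries, against 113, 102, 99.8 and 43.8 FPKM in PND1 libraries. In both ages replicate 4 stood far below the other libraries, which lay close together. The log2 difference was 0.088 (95% interval -0.61 to 0.79, limma adjusted p = 0.972). It was -0.22 without PND1 replicate 4 and 0.35 without PND4 replicate 4, so the sign followed which of these libraries was left out. In the GENCODE annotation 759 of the 5192 exonic bases of Ctnnb1 are shared with Ulk4, a kinase-like gene on the opposite strand. Ulk4 was listed at 106, 120, 168 and 143 FPKM at PND4 and at 150, 131, 131 and 132 FPKM at PND1, above Ctnnb1 in 7 of 8 libraries, and was not low in the libraries numbered 4. No source used here names a strand setting for the FPKM step, so the shared stretch makes both values uncertain.

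Axin2 (ENSMUSG00000000142, chromosome 11 from 108920349 to 108950783, plus strand) encodes a scaffold of the destruction complex and is itself switched on by beta-catenin. It had 2.18, 1.26, 3.63 and 2.76 FPKM in PND4 libraries, against 0.545, 0.828, 2.76 and 2.76 FPKM in PND1 libraries. PND1 replicates 1 and 2 lay below every other library, and PND1 replicates 3 and 4 lay within the PND4 range. The same PND1 libraries formed the low and the high pair of Lgr5. The low pair, PND1 replicates 1 and 2, also listed more genes at exactly 0 (1234 and 858). PND1 replicates 3 and 4 listed 635 and 222. The part of this in the values of Axin2 and Lgr5 was not tested. Axin2 had a log2 difference of 0.41 (95% interval -0.57 to 1.39, limma adjusted p = 0.883). Of the exonic bases of Axin2, 209 are shared with the antisense gene Gm11670, which had no row.

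**Figure D3:**
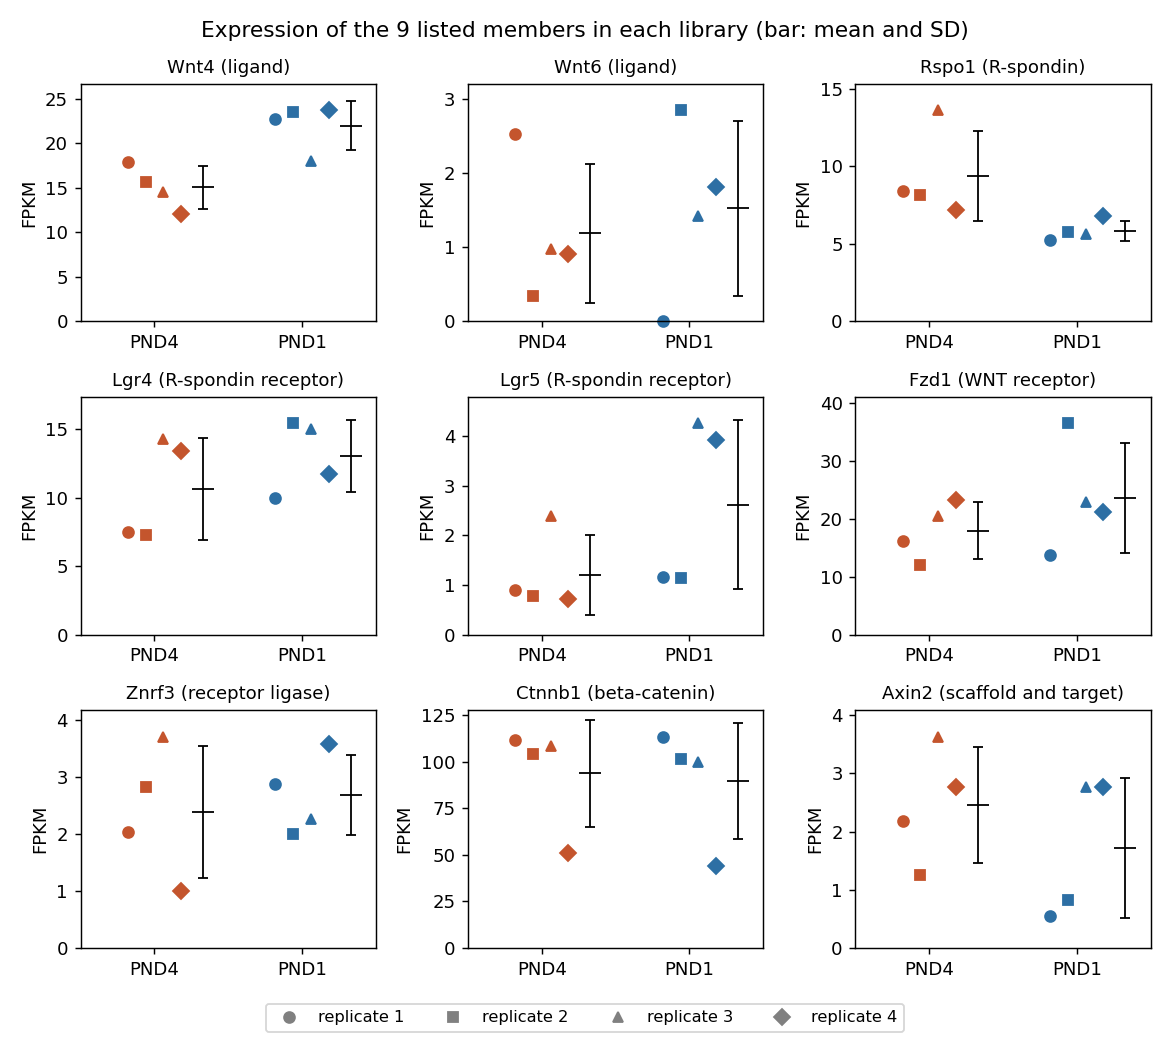
FPKM of the 9 listed members in each PND4 and PND1 library, with a symbol per replicate number and the mean and SD as bars. Wnt4 and Rspo1 did not overlap between the ages, with Wnt4 lower and Rspo1 higher at PND4, and Ctnnb1 was low in replicate 4 of both ages (51.1 FPKM at PND4, 43.8 FPKM at PND1).

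Ordered by mean FPKM over the 8 libraries, Ctnnb1 led at 91.7 ± 27.8, followed by Fzd1 at 20.8 ± 7.60, Wnt4 at 18.5 ± 4.402, Lgr4 at 11.8 ± 3.26 and Rspo1 at 7.60 ± 2.69. Znrf3 at 2.54 ± 0.900, Axin2 at 2.09 ± 1.095, Lgr5 at 1.91 ± 1.45 and Wnt6 at 1.36 ± 1.00 formed the low end (SD over all 8 libraries of both ages). The ranges over libraries did not overlap between Ctnnb1 and Fzd1, nor between Rspo1 and Znrf3. Every other pair of neighbours in this order overlapped. The level of Ctnnb1 carries the uncertainty of the stretch it shares with Ulk4.

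The other genes of the pathway were read by role. The lists name 104 genes, members included, of which 64 had a row and 60 were tested. Some genes, Lgr5 among them, stand in several lists, so the counts by role below are not independent. Of the 60, 0 passed the adjusted test, 25 had a difference above 0 and 35 below, and the median was -0.029, against 0.078 for all genes tested. Ages did not overlap for 4 of the 60, which were Wnt4, Rspo1, Frzb and Bambi, against 4.24% of all genes tested, so the count is near the background.

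Frzb, which encodes a secreted decoy that binds WNT proteins, had the largest log2 difference of the 60 genes. It had 10.4, 2.39, 2.33 and 6.16 FPKM in PND4 libraries. In PND1 libraries it was listed at 0 in replicate 1 and had 0.521, 1.30 and 0.853 FPKM in the others. Every PND4 library lay above every PND1 library. The log2 difference was 1.79 with an SE of 0.50 (95% interval 0.69 to 2.88), and it did not pass over all genes (limma, unadjusted p = 0.00413, adjusted p = 0.740). Only 1 PND1 library reached 1 FPKM, so Frzb passed the filter on low values through its PND4 libraries. Stroma markers summed higher at PND4 as well, without overlap, and their part in the Frzb values was not tested.

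The remaining extracellular inhibitors showed smaller differences. Of the 16 listed for this role 6 had a row, with 3 differences above 0, 3 below and a median of 0.11. Sfrp2, a secreted Frizzled-related protein, was the most abundant at 45.9 ± 13.8 FPKM at PND4 and 47.4 ± 6.11 FPKM at PND1. Sfrp4 stood at 10.2 ± 2.03 FPKM at PND4 and 11.6 ± 5.71 FPKM at PND1. Dkk3 stood at 8.56 ± 1.92 FPKM at PND4 and 8.01 ± 4.996 FPKM at PND1 (SD, n = 4 each).

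Of the destruction complex and Dishevelled genes 12 of 15 had a row and were tested, with 6 differences above 0, 6 below and a median of 0.011. Csnk1a1, the casein kinase that primes beta-catenin, stood at 101 ± 7.39 FPKM at PND4 and 97.5 ± 7.07 FPKM at PND1. Gsk3a, a glycogen synthase kinase of the same complex, stood at 46.6 ± 8.87 FPKM at PND4 and 43.5 ± 4.76 FPKM at PND1. Tnks2, a tankyrase that promotes AXIN turnover, stood at 40.6 ± 9.08 FPKM at PND4 and 41.1 ± 7.57 FPKM at PND1.

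Of the nuclear effectors 12 of 14 had a row and 10 were tested, with 7 differences above 0, 3 below and a median of 0.14. The list also holds genes that act against beta-catenin, such as Ctnnbip1 (0.072), so these signs give no direction of signalling. Beside Ctnnb1 the most abundant were Pygo2, a co-activator of beta-catenin, at 14.0 ± 8.53 FPKM at PND4 and 13.9 ± 3.98 FPKM at PND1, and Ctnnbip1, which blocks the binding of beta-catenin to TCF factors, at 11.2 ± 3.03 and 10.4 ± 1.94 FPKM for PND4 and PND1. Of the DNA-binding partners of beta-catenin, Tcf7 and Tcf7l1 were above 0 in every library and overlapped between the ages. Tcf7 stood at 8.91 ± 4.66 FPKM at PND4 and 10.9 ± 1.27 FPKM at PND1, with a log2 difference of -0.35. Tcf7l1 stood at 4.31 ± 1.93 FPKM at PND4 and 4.81 ± 1.19 FPKM at PND1, with a log2 difference of -0.19. Lef1 and Tcf7l2, partners of the same family, were not tested because of the filter. Lef1 was listed at 0 in all 4 PND4 libraries and in PND1 replicate 1, and had 2.67, 5.10 and 0.0116 FPKM in the other PND1 libraries. Tcf7l2 was listed at 0 in every library except PND1 replicate 3, with 3.67 FPKM.

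Of 16 genes known as targets of beta-catenin in various tissues 13 had a row and 12 were tested, with 2 differences above 0, 10 below and a median of -0.29. The 2 above 0 were Axin2 and Apcdd1. No target passed the adjusted test. Bambi, a membrane inhibitor of TGF-beta and BMP signalling, was chosen after its values were seen. It had 2.55, 6.81, 5.53 and 6.64 FPKM in PND4 libraries, against 9.13, 7.35, 8.40 and 7.62 FPKM in PND1 libraries, with no overlap. Its log2 difference was -0.58 (95% interval -1.23 to 0.075, limma unadjusted p = 0.0775, adjusted p = 0.805).

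The most abundant targets overlapped between the ages. Myc, a growth-promoting transcription factor, stood at 40.8 ± 8.66 FPKM at PND4 and 42.9 ± 15.5 FPKM at PND1. Tnfrsf19, a receptor of the tumour necrosis factor family, stood at 29.4 ± 4.07 FPKM at PND4 and 40.6 ± 18.0 FPKM at PND1. Ccnd1, for cyclin D1, stood at 26.9 ± 6.23 FPKM at PND4 and 32.5 ± 7.51 FPKM at PND1.

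Of the genes listed for cadherin junctions 5 of 5 had a row and 4 were tested, all 4 with a difference below 0 and a median of -0.11. Ctnnd1, for p120 catenin, stood at 84.8 ± 9.71 FPKM at PND4 and 89.8 ± 11.8 FPKM at PND1. Ctnna1, for alpha-catenin, stood at 77.5 ± 7.99 FPKM at PND4 and 78.1 ± 10.1 FPKM at PND1, and the cadherin gene Cdh2 at 66.2 ± 17.4 and 71.6 ± 10.9 FPKM for PND4 and PND1. Cdh1, the epithelial cadherin, was at most 4.16 FPKM at PND4 and 1.31 FPKM at PND1.

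**Figure D4:**
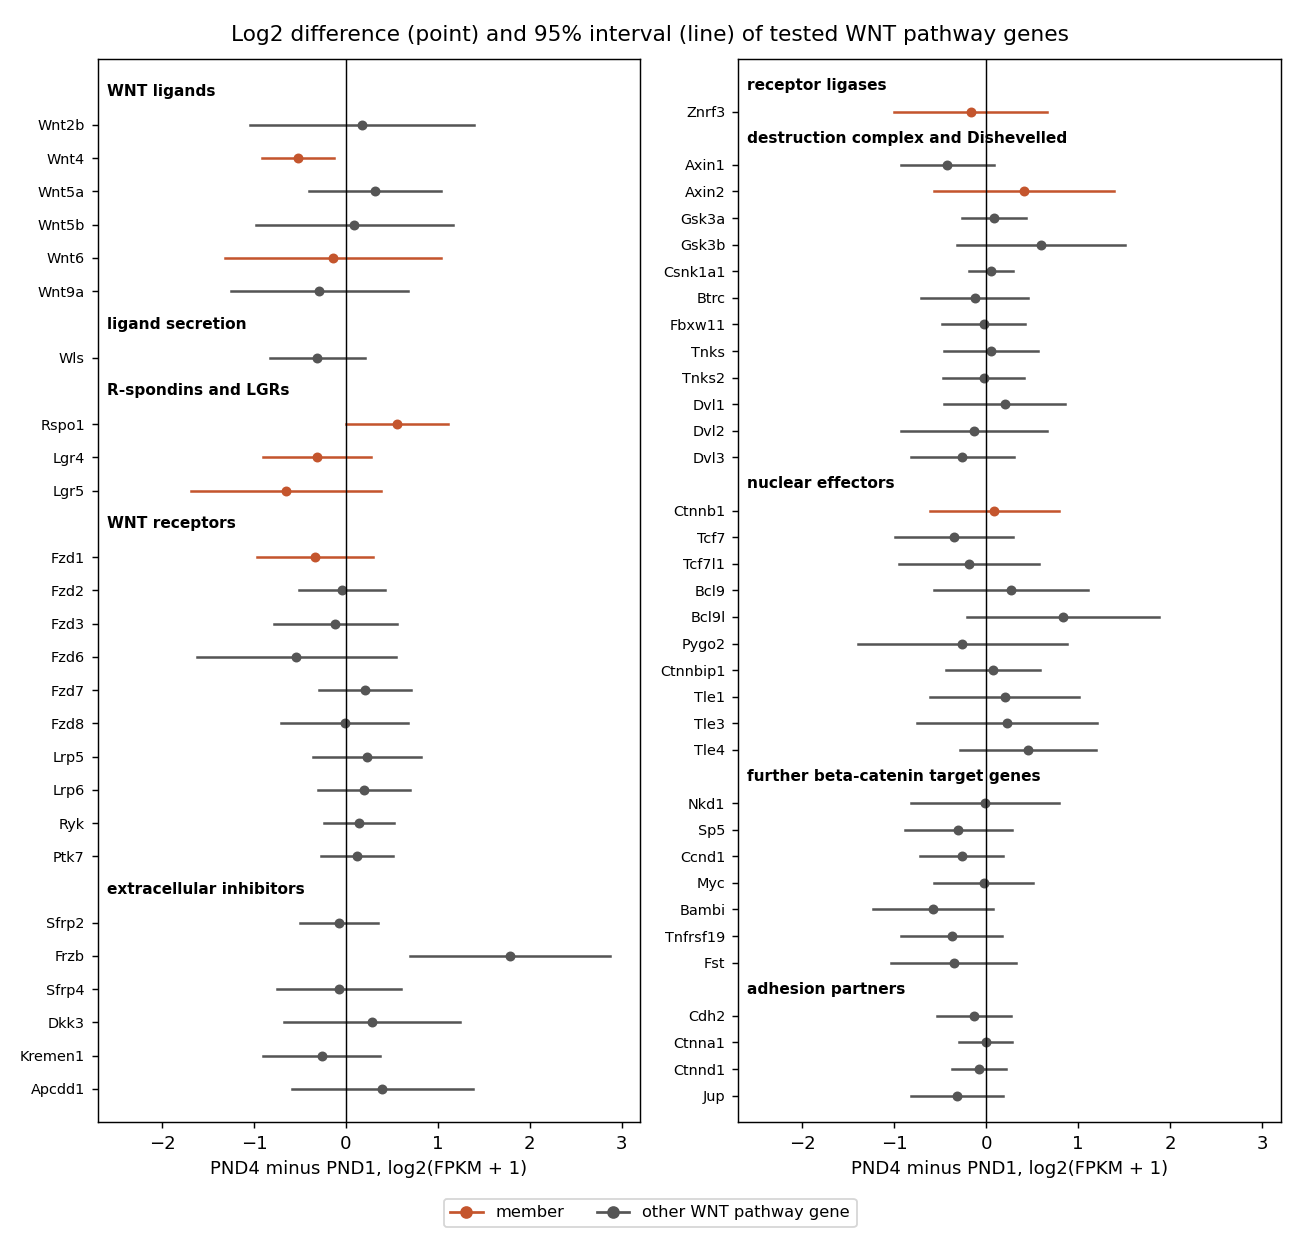
Log2 difference, PND4 minus PND1, on the log2(FPKM + 1) scale, with its 95% interval, for the 60 tested genes of the WNT lists by role, each gene drawn once. Frzb lay farthest from 0 at 1.79, and it passed the filter on low values through its PND4 libraries. The unadjusted intervals of Frzb, Wnt4 and Rspo1 did not include 0, and 0 of the 60 genes passed the adjusted test. Of all genes tested 5.9% had an unadjusted p under 0.05 in limma.

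For 4 members the genes with the most similar pattern over the 8 libraries were listed, among 4705 tested genes with mean expression at or above the median. Each correlation is a description over 8 libraries, which share their depth and scaling, and the highest of so many candidates is high in any data. Wnt4 was most like the mitochondrially encoded genes mt-Co2 (Pearson r = 0.94) and mt-Co1 (r = 0.94) and then Srpr (r = 0.93). Mitochondrially encoded rows made up 29.4%, 23.4%, 22.4% and 22.8% of summed FPKM in PND4 libraries, against 28.9%, 30.6%, 26.6% and 29.9% in PND1 libraries, and their part in the Wnt4 values was not tested. Rspo1 was most like Mthfd1 (r = 0.98), Psmc3 (r = 0.97) and Sdccag3 (r = 0.96). Lgr5 was most like Lsm12 (r = 0.91), the gonadal transcription factor gene Lhx9 (r = 0.89) and Rac1 (r = 0.88). Axin2 was most like Tspyl2 (r = 0.96), D17Wsu92e (r = 0.94) and the cadherin gene Cdh3 (r = 0.94).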

How the data were processed

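The submitters' processing notes name Trim Galore, HISAT2 and the build GRCm38. The authors deposited FPKM values for 8 libraries in a filtered table. For the FPKM program, its annotation, strand setting and filter, no name is given in the sources used here. A row sum was added by the authors, a signal made by summing the FPKM of all libraries, which was not used. The authors also deposited a table of their own comparison. It holds a fold (the ratio of PND1 over PND4, as its sign against the FPKM shows) and the log2 of that fold, as deposited by the authors. It also holds a deposited p-value and q-value from an unnamed test. Of the authors' deposited q-values, 0 of 11783 were under 0.05.

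The 10756 genes that reached 1 FPKM in 4 or more libraries were tested as log2(FPKM + 1) by limma 3.58.1 (R 4.3.3), with trended empirical Bayes variances and without a replicate term. P-values were two-sided and adjusted by Benjamini-Hochberg over all genes tested. Because of the pseudocount, low genes change less on this scale than in FPKM. The limma step was run on simulated data, with noise drawn independently for each gene. Such data lack effects shared by a library, and no result of these runs is given here. For 2471 single-transcript genes, the best-scaled low values lay within 0.1 of a whole number in 23.8% to 27.1% of cases, where 20% would by chance. Whole reads were therefore not recovered, and no interval for counting error is given.

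The members and lists were chosen with earlier results of these data known. The genes named are the members, the 3 most abundant genes of each list, list genes with an unadjusted p under 0.05, and the 3 genes most like each of 4 members. Others named in passing were chosen after their values were seen. Positions and overlaps came from GENCODE M21 (GRCm38), in which 11774 of 11783 gene identifiers were found. Figures were drawn with matplotlib 3.10.9.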

Additional observations from a re-analysis of the deposited data

Results flagged for a closer look

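Of 64 groups of 4 libraries (32 named genes, 2 ages), 7 had a highest or lowest library whose gap to the nearest of the others, divided by the whole range exceeded Dixon's 95% critical value. Chance flags about 1 in 20 groups. Among members these were Ctnnb1 in PND4 replicate 4 at 51.1 FPKM, Lgr5 in PND4 replicate 3 at 2.40 FPKM and Wnt4 in PND1 replicate 3 at 18.0 FPKM. Ctnnb1 in PND1 replicate 4, at 43.8 FPKM, lay just under the limit. Among other pathway genes they were Ptk7 in PND1 replicate 1 at 19.6 FPKM, Tnks2 in PND4 replicate 1 at 27.1 FPKM and Ctnnbip1 in PND1 replicate 3 at 13.3 FPKM. The marker Foxl2 in PND4 replicate 1 stood apart at 26.2 FPKM.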

How the results depend on the processing

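Over 16 alternatives, 1 gene was called in each, and 0 members and 0 genes of the WNT lists. Of 32 named genes, 15 kept the sign of their difference in all 16 alternatives run for them, among them 6 members, Frzb and Bambi. Wnt4 ran from -0.61 to -0.43 (adjusted p 0.605 to 0.895), Rspo1 from 0.38 to 0.66 (0.706 to 0.895) and Frzb from 0.80 to 3.06 (0.631 to 0.887). Lgr5 and Wnt6 did not pass the stricter filter and have 15. With median-of-ratios scaling 242 genes were higher and 323 lower at PND4 at an unadjusted p under 0.05, and with upper-quartile scaling 232 and 345, against 437 and 198 as deposited. Leaving out 1 library gave 330 to 558 higher and 162 to 238 lower. Members at an unadjusted p under 0.05 numbered 2, but 1 with either scaling, without a filter, with a pseudocount of 5, with the replicate block and without both libraries numbered 1 (chosen after seeing the data), and 1 to 2 with 1 library left out. In each of these cases Wnt4 stayed under 0.05. Members whose ages did not overlap numbered 2, but 1 (Rspo1) with either scaling, 2 to 3 with 1 library left out and 3 without both libraries numbered 1. Equal replicate numbers are not said to pair libraries. Deviations of same-numbered libraries correlated by 0.046, -0.0088, 0.032 and 0.12, and the replicate block left 0 members called.

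Differences that changed sign were Csnk1a1 with median-of-ratios (-0.027) and upper-quartile scaling (-0.033), Ctnnbip1 with upper-quartile scaling (-0.0042) and Wnt6 with a pseudocount of 0.1 (0.14). Without both libraries numbered 1 they were Dkk3 (-0.10), Tnks2 (0.20), Pygo2 (0.20), Ctnnbip1 (-0.13) and Foxl2 (-0.25). With 1 library left out, Ctnnb1 ran from -0.22 to 0.35, Wnt6 from -0.53 to 0.12, Znrf3 from -0.35 to 0.062, Wnt2b from -0.22 to 0.64, Ptk7 from -0.014 to 0.20, Sfrp2 from -0.26 to 0.029, Sfrp4 from -0.25 to 0.19, Dkk3 from -0.18 to 0.61, Gsk3a from -0.0084 to 0.18, Tnks2 from -0.14 to 0.15, Pygo2 from -0.57 to 0.36, Ctnnbip1 from -0.084 to 0.18, Myc from -0.22 to 0.18, Ctnna1 from -0.10 to 0.049, Foxl2 from -0.077 to 0.23 and Krt19 from -0.30 to 0.36. The cause was not tested. With unknown depth and 4 libraries per age, the width of the intervals limits what can be said of Wnt6, Lgr5, Axin2 and Znrf3.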
